A study of Rattus norvegicus with 12 samples.

Results

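The genes described here are 10 antiviral effectors of the kind that type I interferons induce, namely Mx1, Mx2, Isg15, Usp18, Rsad2, Cmpk2, Oas1a, Oasl, Ifit2 and Ifit3. They were chosen by symbol from the 34034 gene symbols of the count table, with their levels in these libraries already known, so their levels and differences are given as a description, without p-values. All 10 symbols were in the table. INS-1E, a rat insulinoma line of wild-type genotype, is a widely used model of the insulin-secreting β-cell. It was sequenced in 4 groups of 3 libraries, labelled as biological replicates. Untreated cells received no cytokine. IL-1βlow cells were given IL-1β at 10 pg/ml for 72 h. CYT cells were challenged with IL-1β at 100 pg/ml and IFN-γ at 5 ng/ml for 16 h. IL-1βlow + CYT cells were preconditioned with IL-1βlow, received new medium and were then given the same challenge. The comparison of the challenged groups asks whether preconditioning with a low concentration of IL-1β alters the response to the cytokine mixture. All groups come from 1 cell line, and no library received a type I interferon.

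Interferons act through receptors at the cell surface that activate STAT transcription factors. Type I interferons activate a complex with Stat2 and Irf9 that binds the interferon-stimulated response element, whereas IFN-γ acts mainly through the gamma-activated site. Many antiviral genes carry the first element and are also reached by IFN-γ through Irf1 and related factors. In β-cells, an interferon-stimulated gene signature is known from islets in type 1 diabetes.

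Promoter sequence was taken from RefSeq (assembly GRCr8), and 6 of the 10 genes had an entry (Mx1, Ifit3, Oasl, Rsad2, Cmpk2 and Oas1a). The letters GAAA, any 2 bases and GAAA again, the core of an interferon-stimulated response element, were searched on both strands in the 250 bases before each start. They were found in 3 of these 6 promoters and in 3.41% of 33469 promoters in the table. The windows of 90 bases around the matches of Ifit3 (chr1:241527236-241527325, plus strand), Rsad2 (chr6:48788221-48788310, minus strand) and Oas1a (chr12:41330358-41330447, plus strand) are printed 5′ to 3′ because they hold the shared element, with the matching letters in capitals.
Ifit3: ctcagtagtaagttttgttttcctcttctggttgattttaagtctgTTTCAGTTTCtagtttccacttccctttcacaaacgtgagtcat
Rsad2: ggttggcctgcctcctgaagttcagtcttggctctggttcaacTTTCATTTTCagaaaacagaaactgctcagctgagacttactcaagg
Oas1a: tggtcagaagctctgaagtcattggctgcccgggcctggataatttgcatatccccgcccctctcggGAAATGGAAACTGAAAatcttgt
The match began 44 bases before the start in Ifit3 and 147 bases before it in Rsad2. The annotated Rsad2 gene begins upstream of that start, and 25 bases of its printed window lie inside the gene. The Rsad2 match lies outside it. Oas1a held 2 overlapping matches, 41 and 35 bases before the start given in the promoter table. They lay inside the Oas1a gene as the same annotation draws it, since the gene's first base is upstream of that start. The letters TTC, any 3 bases and GAA, the core of a gamma-activated site, were found in 1 of the 6 promoters, that of Oas1a, 199 bases before the start, and in 7.67% of all promoters in the table. Rsad2 and Cmpk2 are direct neighbours on chromosome 6, and their promoters differed in composition. That of Cmpk2 had a GC content of 65.2% and 20 CG dinucleotides, and that of Rsad2 had 52% and 2, against medians of 51.2% and 5 over the table. These matches are letters in a window and were not tested as binding sites.

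Total counts ran from 15812640 to 20246806 per library. Levels are given as CPM, a library's counts of a gene over its total after TMM scaling in edgeR, as mean ± SD over 3 libraries. Genes above 1 CPM in at least 2 libraries were tested, which kept 14324 genes and 7 of the 10 effectors. Ifit2, Ifit3 and Oasl reached 1 CPM in no library. Passing the filter depended on the CYT and IL-1βlow + CYT libraries for Mx1 and Rsad2, which were above 1 CPM in those 6 libraries alone. Differences were estimated by edgeR's quasi-likelihood fit over all 12 libraries, and genes called as passing had a Benjamini-Hochberg adjusted p under 0.01 together with a log2 fold change beyond 1 in either direction (beyond 0.6 for IL-1βlow against untreated cells). All 10 of the β-cell markers checked (among them Ins1, Ins2, Pdx1 and Mafa) were detected in every group. Their summed level was 43100 to 49900 CPM in untreated, 38500 to 45000 in IL-1βlow, 14100 to 15000 in CYT and 20200 to 25700 in IL-1βlow + CYT libraries. Of 12 leukocyte markers, the pan-leukocyte gene Ptprc and Itgam, Cd14 and Tyrobp had no count in any library. The summed level of the 12 was 1.36 to 1.83 CPM in untreated, 1.03 to 1.54 in IL-1βlow, 2.51 to 3.69 in CYT and 4.56 to 5.88 in IL-1βlow + CYT libraries. The part of either in the differences below was not tested. In bulk RNA, fewer responding cells and less RNA per responding cell cannot be told apart.

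In CYT cells all 7 effectors that could be tested stood above untreated cells in every library, from 2.72-fold for Cmpk2 to 343-fold for Mx1 as a ratio of means. Of all genes tested, 34.0% likewise had every CYT library above every untreated one, and 35.3% had every one below. In IL-1βlow + CYT cells the same 7 genes lay below every CYT library and above every untreated library, as did 9.21% of all genes tested. Taken singly, 27.6% of all genes lay below every CYT library and 20.2% above every untreated one. The genes were chosen with these levels known, so the separations are descriptions. IL-1βlow alone left each of the 10 genes within the range of untreated libraries or overlapping it. For the 7 effectors tested, the order of levels was CYT, then IL-1βlow + CYT, then untreated and IL-1βlow, the last pair without a separation.

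**Figure D1:**
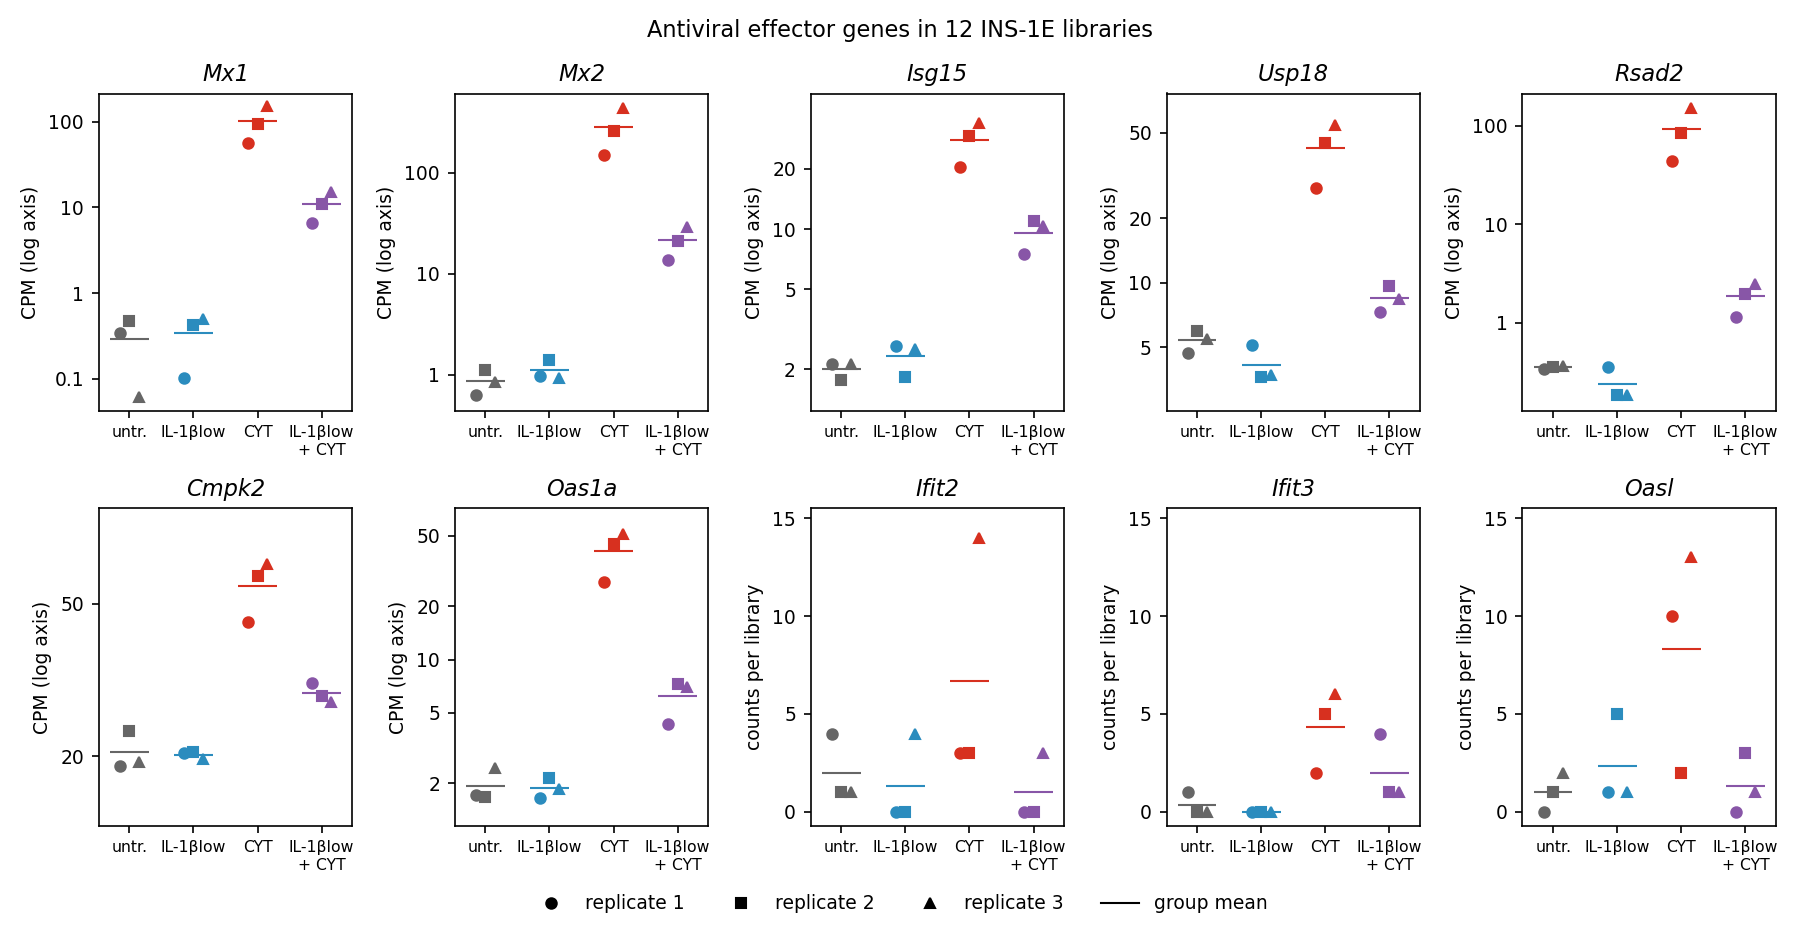
Level of each effector in each of the 12 libraries, by group, with 1 symbol per replicate number and a line at the group mean. The vertical axis is CPM on a log scale for 7 genes and raw counts on a linear scale for Ifit2, Ifit3 and Oasl. The CYT libraries were highest for the 7 genes, and the IL-1βlow + CYT libraries lay between them and the untreated libraries.

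The Mx proteins are dynamin-like GTPases that block the replication of many viruses. Mx1 was at 55.9, 93.4 and 152 CPM in the CYT libraries, against 0.344, 0.474 and 0.0608 CPM in untreated and 0.103, 0.429 and 0.494 CPM in IL-1βlow libraries. It was at 6.57, 10.9 and 14.9 CPM in IL-1βlow + CYT libraries. The lowest CYT library was thus above the highest preconditioned one, and both groups stood apart from the cells without the challenge. The log2 fold change of Mx1 in CYT against untreated cells was 8.38 (SE 0.538), and in IL-1βlow + CYT against CYT cells -3.21 (SE 0.347). Mx2, the second Mx gene of the same cluster, was at 149, 261 and 435 CPM in CYT libraries and at 13.7, 21.3 and 29.1 CPM in IL-1βlow + CYT libraries. Untreated libraries held 0.630, 1.13 and 0.851 CPM of Mx2 and IL-1βlow libraries 0.974, 1.41 and 0.925 CPM. Its groups were separated in the same way as those of Mx1. The log2 fold change of Mx2 was 8.33 (SE 0.470) in CYT against untreated cells and -3.72 (SE 0.330) in IL-1βlow + CYT against CYT cells. Preconditioned and challenged cells kept a mean of 10.8 ± 4.18 CPM (SD, n = 3) of Mx1 and 21.4 ± 7.66 CPM (SD, n = 3) of Mx2, which was 36.9-fold and 24.6-fold the untreated mean.

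Isg15 encodes a ubiquitin-like protein that is attached to target proteins during the interferon response. Its level was 20.5, 29.2 and 33.9 CPM in CYT libraries and 7.54, 10.9 and 10.3 CPM in IL-1βlow + CYT libraries. Untreated libraries held 2.12, 1.78 and 2.13 CPM of Isg15 and IL-1βlow libraries 2.62, 1.84 and 2.53 CPM. Isg15 was therefore detected in all 12 libraries and did not overlap between CYT, preconditioned and untreated cells. Isg15 thus had a log2 fold change of 3.79 (SE 0.227) for CYT against untreated cells and -1.53 (SE 0.192) for IL-1βlow + CYT against CYT cells. Usp18 encodes the protease that removes Isg15 from proteins and also restrains signalling at the type I interferon receptor. It was at 27.7, 44.7 and 54.4 CPM in CYT libraries, and at 7.30, 9.70 and 8.44 CPM in IL-1βlow + CYT libraries. Untreated libraries held 4.70, 5.98 and 5.47 CPM of Usp18 and IL-1βlow libraries 5.13, 3.62 and 3.70 CPM. The preconditioned libraries of Usp18 thus came close to the untreated range without reaching it. Its log2 fold change was 2.97 (SE 0.230) in CYT cells and 0.66 (SE 0.235) in IL-1βlow + CYT cells, both against untreated cells, and -2.31 (SE 0.219) between the challenged groups.

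Rsad2 encodes viperin, a radical SAM enzyme that turns a nucleotide into a chain terminator of viral RNA synthesis. Its levels in CYT libraries were 44.4, 84.4 and 152 CPM, a mean of 93.6 ± 54.4 CPM (SD, n = 3). IL-1βlow + CYT libraries held 1.16, 1.99 and 2.50 CPM of Rsad2, a mean of 1.88 ± 0.677 CPM (SD, n = 3). Untreated libraries were at 0.344, 0.355 and 0.365 CPM and IL-1βlow libraries at 0.359, 0.184 and 0.185 CPM. The ratio of the CYT mean to the preconditioned mean was 49.8, the largest among the 7 genes tested. The log2 fold change of Rsad2 was 8.02 (SE 0.506) in CYT against untreated cells, -5.63 (SE 0.404) in IL-1βlow + CYT against CYT cells and 2.39 (SE 0.687) in IL-1βlow + CYT against untreated cells. Cmpk2, its neighbour, encodes a mitochondrial nucleotide kinase that can supply the substrate of viperin. Cmpk2 was at 44.7, 59.1 and 63.2 CPM in CYT libraries and at 31.1, 28.6 and 27.8 CPM in IL-1βlow + CYT libraries. Its levels were 18.9, 23.3 and 19.3 CPM in untreated and 20.4, 20.5 and 19.6 CPM in IL-1βlow libraries. The 2 neighbouring genes thus moved in one direction with unlike sizes, and Cmpk2 was the one with a level near 20.5 CPM without any challenge. The log2 fold change of Cmpk2 was 1.44 (SE 0.130) in CYT against untreated cells and -0.93 (SE 0.127) in IL-1βlow + CYT against CYT cells.

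Oas1a belongs to the 2′-5′-oligoadenylate synthetases, which make a nucleotide second messenger when they sense double-stranded RNA. It was at 27.5, 45.0 and 51.2 CPM in CYT libraries and at 4.32, 7.26 and 6.95 CPM in IL-1βlow + CYT libraries. Untreated libraries held 1.72, 1.66 and 2.43 CPM of Oas1a and IL-1βlow libraries 1.64, 2.15 and 1.85 CPM. Again the challenged, the preconditioned and the untreated libraries did not overlap. For Oas1a the log2 fold change was 4.41 (SE 0.271) in CYT against untreated cells and -2.73 (SE 0.236) in IL-1βlow + CYT against CYT cells. Oasl, a relative of the synthetases, was barely counted. Its raw counts were 10, 2 and 13 in CYT libraries, 0, 1 and 2 in untreated, 1, 5 and 1 in IL-1βlow and 0, 3 and 1 in IL-1βlow + CYT libraries. The CYT libraries of Oasl overlapped the preconditioned and the untreated ones. Summed over 3 libraries, CYT cells held 25 counts against 3 in untreated cells, a ratio of 7.68 after scaling for depth (95% exact interval 2.34 to 39.7, counting error only).

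The Ifit proteins bind foreign RNA and hold back its translation, and Ifit2 and Ifit3 are direct neighbours in the genome. Ifit2 had raw counts of 3, 3 and 14 in CYT libraries, 4, 1 and 1 in untreated, 0, 0 and 4 in IL-1βlow and 0, 0 and 3 in IL-1βlow + CYT libraries. These ranges overlapped, and 14 of the 20 CYT counts came from 1 library. Ifit3 had 2, 5 and 6 counts in CYT libraries, 1, 0 and 0 in untreated and 4, 1 and 1 in IL-1βlow + CYT libraries. No count of Ifit3 was found in IL-1βlow libraries. The CYT libraries of Ifit3 lay above the untreated ones and overlapped the preconditioned ones, and the sums of 13 and 1 counts gave a ratio of 12 with a 95% exact interval from 1.8 to 509. For CYT over IL-1βlow + CYT cells the interval ran from 0.744 to 6.73, so a difference between the challenged groups was not detectable at this depth. Other genes of the family were added after their values were seen. Ifit1bl, too low to be tested, had 2, 3 and 17 counts in CYT libraries, 12, 19 and 11 in untreated, 6, 5 and 5 in IL-1βlow and 7, 8 and 12 in IL-1βlow + CYT libraries, so its CYT libraries overlapped those of every other group. Ifit1 was at 3.37, 8.80 and 11.6 CPM in CYT and at 0.912, 0.945 and 1.96 CPM in IL-1βlow + CYT libraries. Ifit1 had a log2 fold change of 5.15 (SE 0.568, edgeR adjusted p = 2.5e-06) in CYT against untreated and -2.64 (SE 0.435, adjusted p = 0.00018) in IL-1βlow + CYT against CYT cells. It was below 1 CPM in every untreated and IL-1βlow library and passed the filter through the CYT libraries. These differences and p-values of Ifit1 are therefore descriptions.

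**Figure D2:**
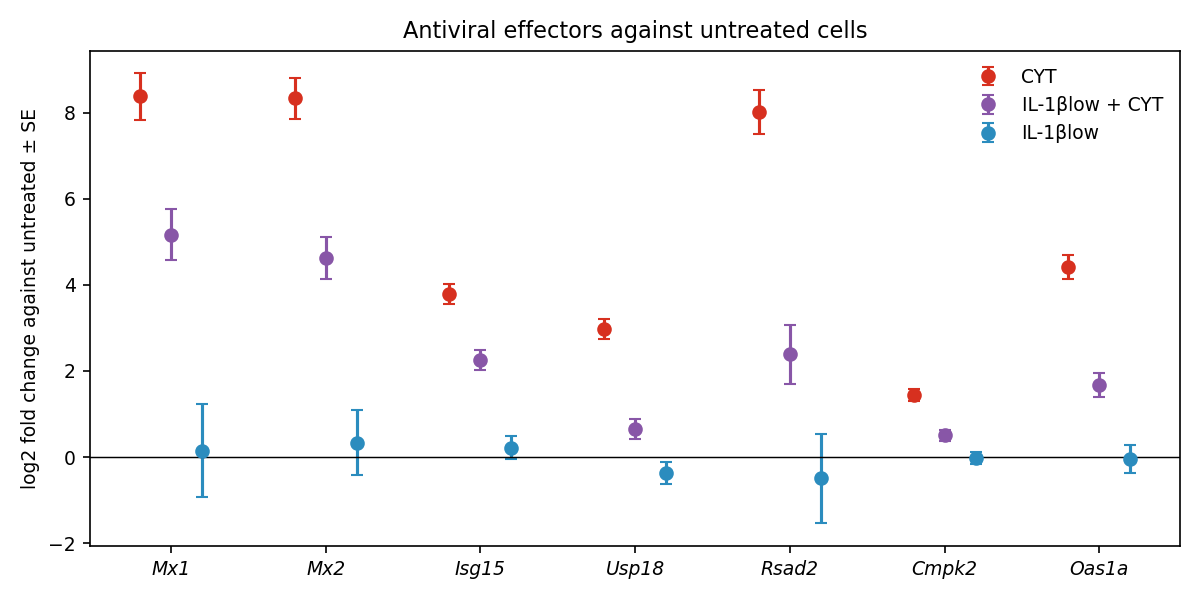
Log2 fold change against untreated cells (vertical axis, points with SE bars from edgeR's fit) of the 7 effectors that could be tested, in CYT, IL-1βlow + CYT and IL-1βlow cells. Values in CYT cells ran from 1.44 to 8.38 and in IL-1βlow + CYT cells from 0.51 to 5.16, and those in IL-1βlow cells lay around 0.

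In CYT against untreated cells 7 of the 7 effectors tested passed the thresholds as higher, where 10.0% of all genes tested were called higher and 11.6% lower. In IL-1βlow + CYT against CYT cells 6 passed as lower, where 5.92% of all genes were called lower and 6.54% higher. Cmpk2 did not pass there because its log2 fold change of -0.93 was inside the fold limit. In IL-1βlow + CYT against untreated cells 4 passed as higher (Mx1, Mx2, Isg15 and Oas1a), beside 3.85% of all genes called higher and 2.14% lower. Since the genes were picked for these contrasts, nothing is read from these counts. The comparisons share their control libraries, so their values are given side by side. IL-1βlow against untreated cells gave 0 calls among the 7, with log2 fold changes from -0.49 (Rsad2, SE 1.04) to 0.34 (Mx2, SE 0.747). DESeq2 and exactTest also gave 0 there, and nothing is read from this count either. Of all genes, 0.265% were called higher and 0.168% lower in that comparison. The SE of the genes near 0 CPM was large, and for Mx1 it was 1.08 on the log2 scale.

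The interaction of IL-1βlow and CYT compares the CYT difference in preconditioned cells with that in cells without preconditioning. It was negative for all 7 effectors and passed for 5, with log2 values of -5.13 (Rsad2, SE 1.35), -4.06 (Mx2, SE 0.839), -2.69 (Oas1a, SE 0.4), -1.95 (Usp18, SE 0.330) and -1.75 (Isg15, SE 0.323). Mx1 at -3.36 (SE 1.21) and Cmpk2 at -0.91 (SE 0.183) did not pass. Of all genes, 5.20% were called lower and 5.48% higher for the interaction. The count of 5 depended on single libraries and was 3 without IL-1βlow replicate 2. The effectors were chosen with these levels known, so nothing is read from that count.

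The part of the CYT response that preconditioned cells kept was computed for each gene. On the log2 scale, the difference of IL-1βlow + CYT from untreated cells was 61.6% of the CYT difference for Mx1, 59.6% for Isg15 and 55.4% for Mx2. The share was 38.1% for Oas1a and 35.4% for Cmpk2. It was 29.8% for Rsad2 and 22.2% for Usp18. Mx1 and Rsad2 had comparable fold differences in CYT cells, 343-fold and 264-fold by means, and preconditioned cells held 36.9-fold and 5.3-fold the untreated level. The shares above come from the fitted log2 fold changes. A second measure used log2 CPM with a prior count of 2, in libraries of the same number, which the labels do not pair. By this measure the share of Cmpk2 ran from 22.3% to 58.1% and overlapped those of Mx1 (55.8% to 65.8%) and Isg15 (55.4% to 64.4%). The 2 measures are not the same, and for Rsad2 the second gave 22.3%, 28.9% and 29.4%. Differences between the shares were not tested.

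The wide variation of Rsad2 among the 3 CYT libraries was known when the genes were chosen, so the spread is given as a description. In CYT replicate 3, Rsad2 was 1.62 times the group mean, and in CYT replicate 1 it was 0.475 times the mean. The ratio of highest to lowest CYT library was 3.42 for Rsad2, 2.92 for Mx2 and 2.72 for Mx1. It was 1.96 for Usp18, 1.86 for Oas1a, 1.66 for Isg15 and 1.42 for Cmpk2. The median of this ratio over all genes tested was 1.26 in CYT and in IL-1βlow + CYT cells. CYT replicate 3 was the highest and CYT replicate 1 the lowest for 7 of the 7 effectors. The same was true of 15.3% of all genes tested and of 31.1% of the 1439 genes called higher with CYT. In the lists described below, it held for 53.1% of 49 other antiviral genes and 59.1% of 22 IFN-γ-inducible genes. In IL-1βlow + CYT cells, replicate 3 was the highest and replicate 1 the lowest for 3 of the 7, Mx1, Mx2 and Rsad2. In that group the order held for 18.7% of all genes tested and 20.7% of the 1439 genes called higher with CYT. Nos2, the inducible nitric oxide synthase, also had its lowest CYT level in replicate 1 (412 CPM) and its highest in replicate 3 (689 CPM, against 605 in replicate 2). Total counts were 18516437, 17744203 and 19488861 in CYT replicates 1, 2 and 3. The part of either in the spread was not tested. With each library left out in turn, the log2 fold change of Rsad2 in IL-1βlow + CYT against CYT cells ran from -6.00 without CYT replicate 1 to -5.12 without CYT replicate 3.

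**Figure D3:**
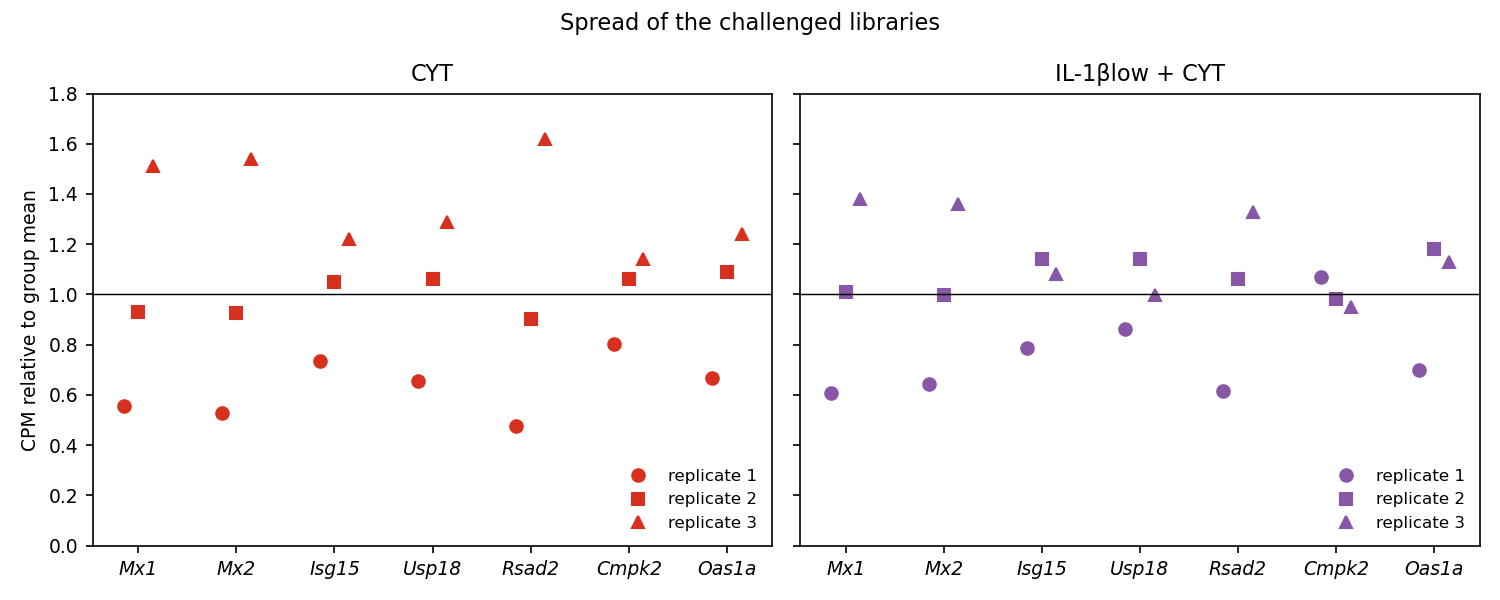
CPM of each library divided by the mean of its group (vertical axis, linear), for the 7 effectors in CYT and IL-1βlow + CYT cells, with 1 symbol per replicate number. In CYT cells replicate 3 was highest and replicate 1 lowest for every gene shown, with the widest spread for Rsad2, from 0.475 to 1.62.

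Of 64 other interferon-stimulated antiviral genes listed, 58 were in the table and 49 were tested. In CYT against untreated cells 30 of these rose and 2 fell, with a median log2 fold change of 1.33 against -0.04 over all genes. Beside them, 10.0% of all genes tested were called higher and 11.6% lower. Oas2, which makes longer oligoadenylates than Oas1, rose by a log2 fold change of 7.48 (SE 0.587, edgeR adjusted p = 7.6e-08). Zbp1, a sensor of Z-form nucleic acid, had 70 counts in CYT cells and 0 in untreated cells, at least 21.5-fold higher against a floor of 3 counts over the group (adjusted p = 4.7e-05). Oas1k had 47 counts against 0, at least 14.4-fold higher (adjusted p = 0.00032). Sp140, a nuclear body protein, had 117 counts against 2, a ratio of 53.9 (95% exact interval 14.6 to 450, adjusted p = 1.8e-05). The list's median was unchanged with Zbp1 and Oas1k at their lower bound. Zbp1, Oas1k and Sp140 passed the filter through the CYT libraries alone, and Oas2 through libraries of the challenged groups alone. Oas2 had 852 counts in CYT and 4 in untreated cells, a ratio of 196 (95% exact interval 76.4 to 722). The list was chosen with earlier results of these data known, so its counts and p-values, here and below, are descriptions. Slfn13 fell by 1.39 (SE 0.258, adjusted p = 0.00033) and Oas1f by 1.26 (SE 0.219, adjusted p = 0.00019) on the log2 scale, so that members of the Oas1 group moved both ways.

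In IL-1βlow + CYT against CYT cells 17 of the 49 were lower and 3 higher, with a median of -0.46 against 0.02 over all genes. Among all genes tested, 5.92% were called lower and 6.54% higher. Without CYT replicate 3 the number that passed was 12 in place of 20. Zbp1 had no count in IL-1βlow + CYT cells and was at least 22.6-fold lower than in CYT cells (adjusted p = 7e-05). Oas1k had 2 counts against 47 in CYT cells, with CYT higher by a ratio of 22.8 (95% exact interval 5.96 to 193). Sp140 was lower by a log2 fold change of -3.59 (SE 0.576) and Herc6, a ligase that attaches Isg15, by -3.15 (SE 0.391, adjusted p = 1.6e-05). The 3 higher genes were Oas1f at 1.37 (SE 0.218), Ifitm1 at 1.18 (SE 0.335) and Slfn13 at 1.04 (SE 0.260), with adjusted p-values of 0.00014, 0.0094 and 0.0042. Ifitm1 already stood at 1.47 (SE 0.36) in IL-1βlow against untreated cells, without passing. Its interaction value was -0.30 (SE 0.493), against 1.20 for Oas1f and 1.37 for Slfn13. The calls of Ifitm1 and Slfn13 were lost with 9 and 4 of the 12 libraries left out in turn. That of Ifitm1 was also lost with RLE scaling, and both were lost in a fit of only the groups compared. Against untreated cells, 13 of the 49 were higher and 0 lower in IL-1βlow + CYT cells (median 0.85), beside 3.85% and 2.14% of all genes. These were led by Oas2 at 4.43 (SE 0.726, adjusted p = 0.0004), Rtp4 at 4.20 (SE 0.385, adjusted p = 1.4e-06), Oasl2 at 2.75 (SE 0.279, adjusted p = 4e-06) and the galectin Lgals9 at 2.73 (SE 0.219, adjusted p = 3.4e-07). IL-1βlow alone gave 0 calls among the 49 in edgeR, 0 in DESeq2 and 1 in exactTest, with 7 at an unadjusted p under 0.05. By edgeR, 0.265% of all genes were called higher there and 0.168% lower.

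**Figure D4:**
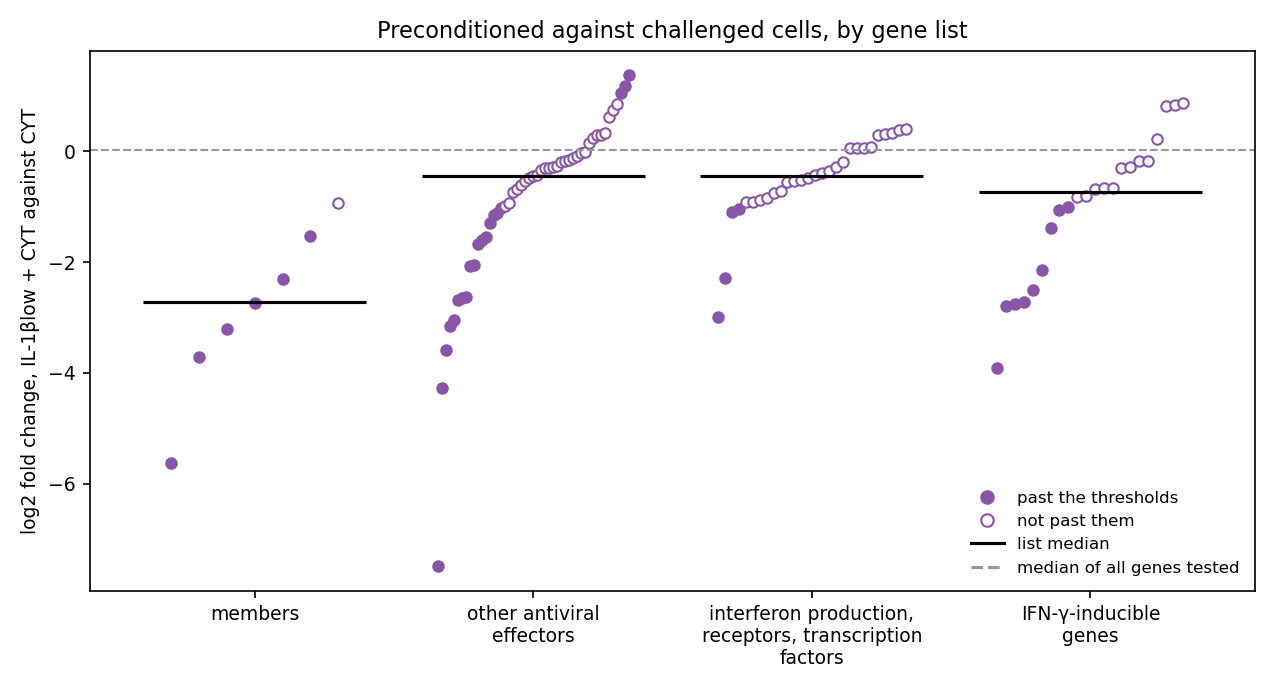
Log2 fold change of IL-1βlow + CYT against CYT cells (vertical axis) for each tested gene of 4 lists, ordered within a list, with filled points past the thresholds, a black line at each list's median and a dashed line at the median of all genes. The list medians were -2.73, -0.46, -0.45 and -0.74, and 3 genes among the other antiviral effectors passed above 0.

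Among the transcripts of interferons, Ifnb1 had 1 count, in CYT replicate 3, and 0 in the other 11 libraries. Ifna2, Ifna4, Ifna5, Ifna16l1 and Ifng had no count in any library, and a count of 0 allows up to 3 counts. Ifna1 had 3 counts in 1 untreated and 2 in 1 IL-1βlow library, Ifne had 1 in an untreated library, and Ifnk had 1 and 2 in a pair of IL-1βlow + CYT libraries. Ifnl1 had 0, 1 and 5 counts in CYT libraries and 1 in an IL-1βlow library. The type III interferon Ifnl3 had 3, 6 and 5 counts in CYT libraries and 0 in the other 9, at least 4.3-fold above untreated cells. None of these reached the filter. The receptor chains of type I interferon were expressed in every group, Ifnar1 at 37.9 to 43.3 CPM in CYT and 39.5 to 45.1 CPM in untreated libraries, and Ifnar2 at 19.5 to 24.1 and 19.3 to 23.7 CPM. Neither passed in any comparison. The receptor chains of IFN-γ, Ifngr1 and Ifngr2, differed by log2 values of 0.71 (SE 0.0957, adjusted p = 1.9e-05) and 0.56 (SE 0.0909, adjusted p = 9.4e-05) in CYT against untreated cells, under the fold limit.

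Of 47 listed genes for interferon production, receptors and transcription factors, 42 were in the table and 28 were tested. In CYT against untreated cells 10 rose and 0 fell (median log2 fold change 0.49), and in IL-1βlow + CYT against CYT cells 4 were lower and 0 higher (median -0.45). The shares of all genes were 10.0% higher and 11.6% lower in the first comparison, and 5.92% lower and 6.54% higher in the second. This list was also chosen with earlier results known, so its counts and p-values are descriptions. Irf7, the factor that amplifies type I interferon production, was at 68.7, 114 and 132 CPM in CYT libraries and at 11.7, 14.6 and 13.1 CPM in IL-1βlow + CYT libraries. Untreated libraries held 8.08, 8.17 and 9.36 CPM of Irf7. It rose by 3.62 (SE 0.201, adjusted p = 2.2e-09) with CYT and differed by -2.99 (SE 0.193, adjusted p = 4.9e-08) between the challenged groups, and like Usp18 it came close to its untreated level. Sting1, the adaptor of cytosolic DNA sensing, rose by 4.28 (SE 0.233, adjusted p = 1.8e-09) and differed by -2.29 (SE 0.201, adjusted p = 7.3e-07) between the challenged groups. Irf1, which IFN-γ induces directly, rose by 2.96 (SE 0.158, adjusted p = 1.5e-09) and differed by -1.10 (SE 0.146, adjusted p = 2.9e-05). Irf5 rose by 3.06 (SE 0.192, adjusted p = 7.2e-09) and differed by -1.04 (SE 0.165, adjusted p = 0.00014). The kinase gene Ikbke rose by 6.99 (SE 0.428, adjusted p = 5.8e-09) and stood 6.79 (SE 0.432, adjusted p = 3.2e-08) above untreated cells in IL-1βlow + CYT cells. The 4 genes past the thresholds in IL-1βlow + CYT against untreated cells were Ikbke, Irf5, Sting1 and Irf1, beside 3.85% of all genes called higher. Without CYT replicate 1 the number that passed between the challenged groups was 8 in place of 4, Irf1 did not pass there without CYT replicate 3, and Irf5 did not without CYT replicate 2.

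Stat2 and Irf9, subunits of the complex that binds the interferon-stimulated response element, rose with CYT by smaller amounts. Stat2 rose by a log2 fold change of 1.64 (SE 0.101, adjusted p = 6.2e-09) and Irf9 by 1.10 (SE 0.153, adjusted p = 2.5e-05). In IL-1βlow + CYT against CYT cells they stood at -0.92 (SE 0.0987, adjusted p = 4.4e-06) and -0.84 (SE 0.151, adjusted p = 0.00038), each inside the fold limit, which both passed without CYT replicate 1. Ifih1, a sensor of double-stranded RNA, rose by 1.28 (SE 0.294, adjusted p = 0.0017) and stood at -0.87 (SE 0.285, adjusted p = 0.02) between the challenged groups, where it passed at -1.16 without CYT replicate 1. Irf9 and Ifih1 did not pass in CYT against untreated cells without CYT replicate 3, where their log2 fold changes were 0.98 and 0.89. Socs1, an inhibitor of the receptor kinases, did not pass in CYT cells, with 4.02, 5.54 and 5.78 CPM against 4.13, 3.37 and 4.26 CPM in untreated libraries. IL-1βlow alone gave 0 calls among the 28 genes in edgeR, DESeq2 and exactTest, and 0 at an unadjusted p under 0.05 in edgeR.

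For comparison, 27 genes best known from the response to IFN-γ were listed, of which 24 were in the table and 22 were tested. With CYT 20 rose and 0 fell (median log2 fold change 3.21), and in IL-1βlow + CYT against untreated cells 21 were higher, with a median of 2.05. The shares of all genes called higher were 10.0% and 3.85%. The list was led by Cd74, the invariant chain of class II antigen presentation, at 10.18 (SE 0.196, adjusted p = 1.9e-13), by its regulator Ciita at 8.17 (SE 0.363, adjusted p = 2.4e-10) and by the GTPase Gbp6 at 7.24 (SE 0.393, adjusted p = 1.7e-09). The chemokine Cxcl9 had 65 counts in CYT and 0 in untreated cells (adjusted p = 3.1e-05). In preconditioned against CYT cells 9 of the 22 were lower and 0 higher, with a median of -0.74, beside 5.92% and 6.54% of all genes. The largest differences were those of Gbp4 at -3.91 (SE 0.664), Gbp6 at -2.79 (SE 0.258), Gbp2 at -2.77 (SE 0.291) and Ciita at -2.71 (SE 0.217), with adjusted p-values of 0.00039, 1.1e-06, 3.5e-06 and 3.3e-07. Cxcl9 and Gbp4 passed the filter through the CYT libraries alone. As this list was also chosen with earlier results known, its counts and p-values are descriptions. With IL-1βlow alone Cd74 was the 1 gene of the 22 that passed, from 0.573, 0.118 and 0.304 CPM in untreated to 12.4, 10.7 and 10.4 CPM in IL-1βlow libraries (log2 fold change 5.03, SE 0.233, adjusted p = 4.1e-08). The 7 antiviral effectors that passed the filter had medians of 4.41 with CYT, 2.26 in IL-1βlow + CYT against untreated cells and -2.73 between the challenged groups, and differences between lists were not tested.

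The genes most like the effectors across the 12 libraries were found by Pearson's r of log2 CPM with the mean profile of the 7 effectors, over 11492 genes with a mean log2 CPM above 2. The 8 highest were Inf2 (r = 0.997), Odc1 (0.996), Cx3cl1 (0.993), Tmem150c (0.993), Stat2 (0.993), Nmi (0.993), Repin1 (0.993) and Glis2 (0.992). Each effector had an r of 0.964 to 0.990 with the other 6. The 12 libraries fall into the 4 groups, so these values describe the order of the groups and no p was computed. Cx3cl1, a membrane-bound chemokine, had a mean of 245 ± 83.1 CPM (SD, n = 3) in CYT and 30.2 ± 5.85 CPM in IL-1βlow + CYT cells, against 3.47 ± 1.46 CPM in untreated cells. Inf2, a formin that acts on actin, was at 150 ± 35.7 CPM (SD, n = 3) in CYT, 23.4 ± 2.64 CPM in IL-1βlow + CYT and 6.66 ± 0.822 CPM in untreated cells. Odc1, the first enzyme of polyamine synthesis, went from 194 ± 6.76 CPM (SD, n = 3) in untreated to 466 ± 34.9 CPM in CYT and 278 ± 13.4 CPM in IL-1βlow + CYT cells. Nmi, a partner of Stat proteins, was at 7.90 ± 0.423 CPM (SD, n = 3) in untreated, 27.8 ± 4.37 CPM in CYT and 13.6 ± 0.709 CPM in IL-1βlow + CYT cells.

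Counting can blur genes with close copies. Mx1 and Mx2, the Oas1 genes, Oasl and Oasl2, and the Ifit genes could share reads, and the setting for reads with several matches is not given in the sources used here, so their separate values are uncertain. Oasl also overlaps another annotated gene in the RefSeq annotation of GRCr8, and the strand setting of the counting is not given either. The other 9 effectors overlap no gene in that annotation.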

How the data were processed

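RNA-seq of INS-1E cells was analysed in 12 libraries, 3 in each of 4 groups taken from the sample labels. The authors inspected reads with FastQC, mapped them to mRatBN7.2 and obtained counts per gene by featureCounts. The deposited table holds these raw counts by gene symbol, and all of its sample columns were used. Depth was 15812640 to 20246806 counts per library. Within groups, pairs of libraries had a chi-square per degree of freedom of 6.67 to 25.3, so each was kept as 1 sample.

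Computation was in R 4.3.3 (edgeR 4.0.16, DESeq2 1.42.0). The fit left 8 residual degrees of freedom. The thresholds follow the study. Alternatives were the tools DESeq2 and exactTest, RLE scaling, no filter on low counts, a fit of the compared groups alone, the replicate number as a block, and each library left out. Scripts were tested on simulated data. Ratios of summed counts have exact intervals that, like floors of 3 counts, cover counting error only.

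Genes named are the 10 effectors, up to 4 genes with the largest change in each direction per list and comparison among those that passed, 11 interferon receptor and signalling genes, and the 8 most similar genes. Interferon transcripts, other Ifit genes, Nos2 and the β-cell and leukocyte markers are named outside this rule, after their values were seen. Some listed genes are not reported here and were left out of the lists and their counts. The effectors and lists were chosen with earlier results of these data known.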

Additional observations from a re-analysis of the deposited data

Results flagged for a closer look

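By the interaction term of the edgeR fit, with p-values adjusted over all genes tested, the CYT difference differed between preconditioned cells and cells without preconditioning for 14 of 49 other antiviral genes, 5 of 28 signalling genes and 7 of 22 IFN-γ-inducible genes. Over all genes tested, 5.48% were called higher and 5.20% lower for the interaction. The lists were chosen with earlier results of these data known, so these counts and p-values are descriptions. The 16 genes given here are those with the largest values, up to 4 in each direction and list. A negative value means that the CYT log2 fold change was lower after IL-1βlow, and a positive value that it was higher, with its sign kept. Among the other antiviral genes it was negative for Zbp1 at -10.17 (adjusted p = 0.0074), Ifi27l2b at -3.01 (adjusted p = 1e-06), Herc6 at -2.73 (adjusted p = 0.0043) and Rtp4 at -2.66 (adjusted p = 0.0016). The value of Zbp1 depends on the prior count, because untreated and IL-1βlow + CYT cells held 0 counts of it. The sign was positive for Slfn13 at 1.37 (adjusted p = 0.0085), Oas1f at 1.20 (adjusted p = 0.0066), Trim21 at 1.11 (adjusted p = 0.0091) and Trim5 at 1.03 (adjusted p = 0.00074). Slfn13 and Oas1f had CYT log2 fold changes of -1.39 and -1.26 without preconditioning, so their positive values mean a smaller fall. Trim21 and Trim5 did not pass in CYT against untreated cells.

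Among the signalling genes it was negative for Irf7 at -2.57 (adjusted p = 1.8e-05), Sting1 at -2.18 (adjusted p = 0.00024), Irf1 at -1.38 (adjusted p = 0.00022) and Irf5 at -1.30 (adjusted p = 0.0022). Among the IFN-γ-inducible genes it was negative for Cd74 at -5.69 (adjusted p = 3.6e-08), Gbp6 at -3.59 (adjusted p = 0.0022), Gbp2 at -2.68 (adjusted p = 0.0058) and Tap1 at -1.44 (adjusted p = 0.00021). Cd74 was the 1 gene of these that IL-1βlow alone raised past the thresholds. Its log2 fold change against untreated cells was 5.03 with IL-1βlow alone, 10.18 in CYT and 9.51 in IL-1βlow + CYT cells. Between the challenged groups Cd74 differed by -0.66 (SE 0.106), inside the fold limit.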

How the results depend on the processing

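The 7 effectors tested kept their direction in CYT against untreated cells, in IL-1βlow + CYT against CYT cells and in the interaction under every alternative run. The numbers of list genes that passed stayed within 1.5 times of those reported except as follows. In IL-1βlow against untreated cells, other antiviral genes gave 1 call with exactTest and 2 without a filter on low counts, in place of 0. IFN-γ-inducible genes gave 2 in place of 1 with DESeq2, with exactTest and without a filter. With each library left out in turn, IL-1βlow + CYT against CYT gave 12 to 20 calls among other antiviral genes (lowest without CYT replicate 3) and 3 to 8 among signalling genes (highest without CYT replicate 1). For the interaction the range was 3 to 6 for the effectors (lowest without IL-1βlow replicate 2), 7 to 15 for other antiviral genes (7 to 9 without untreated replicate 1, 2 or 3, IL-1βlow replicate 1 or CYT replicate 2) and 4 to 7 for IFN-γ-inducible genes (4 without IL-1βlow replicate 1 or 3). The interaction of Zbp1 lost its call with 9 libraries left out in turn, those of Slfn13, Oas1f and Trim21 with 8, that of Gbp2 with 6, that of Trim5 with 5, that of Herc6 with 3 and that of Gbp6 with 1. The cause was not tested.

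Ifnar1 and Ifnar2, at log2 values near 0, changed sign. Ifnar1 in CYT against untreated cells was at 0.04 without a filter, at 0.002 with only the groups compared, and between -0.069 and 0.056 with each library left out. Ifnar2 ran from -0.06 to 0.132 there. In IL-1βlow + CYT against CYT cells Ifnar1 ran from -0.005 to 0.095 and Ifnar2 from -0.047 to 0.143. exactTest and the fit of only the groups compared cannot give the interaction.

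Replicate numbers are shared across groups without a stated pairing. Deviations of same-numbered libraries from their group means correlated at -0.188 to 0.52 (mean 0.191), over 0.1 in 13 of 18 pairs, and 9 of 12 libraries correlated best with their own number. With a replicate block, calls over all genes went from 62 to 141 in IL-1βlow against untreated cells and from 3096 to 3246 in CYT against untreated cells. The block moved no list's number of calls by more than 1.5 times, and Cxcl9 in IL-1βlow + CYT against untreated cells lost its call. Depth limits Ifit2, Ifit3 and Oasl, which reached at most 14 counts in a library.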

Other observations

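Leukocyte markers moved in single genes, named here after their values were seen. Adgre1, which encodes a macrophage surface protein, had 36, 14 and 25 counts in CYT and 37, 54 and 58 in IL-1βlow + CYT libraries, and 1 count in the 6 libraries without the challenge. Summed, CYT cells held 75 counts against 1 in untreated cells, a ratio of 69.1 (95% exact interval 12 to 2770, edgeR adjusted p = 3.4e-05). Adgre1 passed the filter through the challenged libraries alone, so these values are descriptions, and the interval covers counting error only. Csf1r, the receptor of macrophage colony-stimulating factor, was at 1.46, 1.59 and 1.25 CPM in IL-1βlow + CYT libraries and at 0.272, 0.175 and 0.0511 CPM in CYT libraries (log2 fold change 3.08, SE 0.537, adjusted p = 0.0003). Untreated libraries held 0.573, 0.769 and 0.547 CPM of Csf1r. Against them, Csf1r in IL-1βlow + CYT cells did not pass (log2 fold change 1.18, SE 0.436, edgeR adjusted p = 0.069). Csf1r passed the filter through the IL-1βlow + CYT libraries alone, so its differences and p-values are descriptions. Cd68, another macrophage marker, did not pass between the challenged groups (log2 fold change -0.43, SE 0.451, adjusted p = 0.44), and Lyz2 had 3, 3 and 3 counts in CYT and 0 in IL-1βlow + CYT libraries. The markers Ptprc, Itgam, Cd14 and Tyrobp were at 0 in every library.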
